A study of Rattus norvegicus with 48 samples.

Results

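The miR-29 family was followed through 48 small RNA libraries of rat brain, over 6 of the 1063 miRBase names in the deposited table. They are defined by name, without a threshold on any value: the 3 mature forms miR-29a-3p, miR-29b-3p and miR-29c-3p, and the 3 precursor names mir-29a, mir-29b-1 and mir-29b-2. Values of table rows that carried the same name were added up. Long Evans dams had received ethanol or saline on gestational day 12, and the offspring were studied on postnatal day 42. From weaning on day 21 the offspring lived either with unfamiliar peers of their age and sex from an untreated dam (enriched, S) or with littermates of their sex (non-enriched, N). Saline offspring are called control (C) and ethanol offspring E. Each library came from the pooled RNA of 3 rats of one sex, from the amygdala [A] or the ventral striatum [V]. Each of the 4 treatment groups had 6 libraries per region, 3 of females (F1 to F3) and 3 of males (M1 to M3), so that a value stands for a pool and the spread between single rats was not measured.

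MicroRNAs are cut from hairpin precursors and lower the output of mRNAs that pair with their seed, the bases near the 5′ end. The miR-29 family is known for repressing the de novo DNA methyltransferases, TET enzymes, collagens and pro-apoptotic BH3-only proteins, and in the brain it is known to rise as neurons and glia mature. The family is encoded in tandem hairpin pairs, mir-29b-1 with mir-29a and mir-29b-2 with mir-29c.

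The mature sequences are shown because the members share one seed and are told apart by few bases, which decides what the libraries could count separately. All 3 mature names matched an entry of the RefSeq sequence table (build GRCr8), and the seed, bases 2 to 8 from the 5′ end, is in capitals:
miR-29a-3p: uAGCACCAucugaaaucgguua
miR-29b-3p: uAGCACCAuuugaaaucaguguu
miR-29c-3p: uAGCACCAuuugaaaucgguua

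The seed AGCACCA was the same in all 3. Of the 564 mature names of the table with a RefSeq sequence, these 3 were the only ones with that seed. Counted from the 5′ end, miR-29a-3p and miR-29c-3p differed by 1 base over 22 bases, C10U. From miR-29c-3p to miR-29b-3p there were 3 changes, G18A, U21G and A22U, and miR-29b-3p is 1 base longer, 23 bases. It ends in AGUGUU, a hexamer known for drawing miR-29b into the nucleus. On the strand of the mature RNA, AGUGUU was found anywhere in 7 of the 564 mature sequences (1.24%), with no other motif searched, and only miR-29b-3p and miR-92b-5p ended in it.

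The hairpins of the 3 precursor members are shown because mir-29b-1 and mir-29b-2 hold one and the same mature sequence, so that a read of the mature arm alone cannot tell which hairpin it came from. The mature 3p arm is in capitals:
mir-29a: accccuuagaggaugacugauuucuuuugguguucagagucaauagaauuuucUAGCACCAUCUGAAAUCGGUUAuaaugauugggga
mir-29b-1: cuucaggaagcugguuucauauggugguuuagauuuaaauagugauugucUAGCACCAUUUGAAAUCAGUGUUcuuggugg
mir-29b-2: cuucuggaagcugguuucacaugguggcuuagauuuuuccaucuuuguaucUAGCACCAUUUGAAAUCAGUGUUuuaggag

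In RefSeq's GRCr8 annotation, mir-29a lies at chr4:60617955-60618042 and mir-29b-1 at chr4:60618334-60618414, both on the minus strand and 291 bases apart. The mir-29b-2 hairpin lies at chr13:109098831-109098911 on the plus strand, 447 bases from the mir-29c hairpin. The libraries themselves had been aligned to the older build Rn5, and no position was converted between the builds. The table also held mir-29b-3, mir-29c-1 and mir-29c-2.

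Values are RPM, reads scaled so that the mature and the precursor names of a library each add up to 1000000. Libraries held 363141 to 1370412 mature reads, the median being 855220 for the amygdala and 1031166 for the ventral striatum. Because small RNAs had been gel-purified, a precursor name counts short reads that lie in the hairpin and not intact hairpins. Neuronal names (miR-124-3p, miR-128-3p and miR-138-5p) summed to between 5261 and 12838 RPM in every library, while the red blood cell names stayed under 45 RPM. Names of choroid plexus and ciliated cells (miR-204-5p, miR-211-5p, miR-34b-5p, miR-34c-5p and miR-449a-5p) reached 136518 RPM in amygdala libraries and at most 11411 RPM in the ventral striatum. Libraries also differed in how reads were divided between mir-29b-2 and mir-29b-3, which is described with the precursors. Nothing in the labels says that pools came from separate litters, so p-values measure the spread between pools only.

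miR-29a-3p was the leading member, with 3590 ± 468 RPM (SD, n = 48), which placed it at rank 41 of 612 mature names. Its lowest library had 2508 RPM, its median was 3645 RPM and its highest library had 4473 RPM. miR-29b-3p followed with 783 ± 118 RPM (rank 89), between 481 and 1070 RPM with a median of 779 RPM. miR-29c-3p had 469 ± 55.2 RPM (rank 112), between 350 and 563 RPM with a median of 476 RPM. The order held in every library: miR-29a-3p was above miR-29b-3p in 48 of 48 and miR-29b-3p above miR-29c-3p in 48 of 48. The mature forms are of nearly the same length, but how well each sequence is captured in a small RNA library was not measured, so the order and the shares are those of reads.

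The mix of the 3 mature forms hardly varied. miR-29a-3p made up 74.1 ± 1.73% of their sum (SD, n = 48), miR-29b-3p 16.2 ± 1.31% and miR-29c-3p 9.73 ± 0.865%. Within a library there was between 3.57 and 5.76 times as much miR-29a-3p as miR-29b-3p, and between 1.37 and 2.15 times as much miR-29b-3p as miR-29c-3p. The 3 forms together had 4842 ± 601 RPM. Across the 8 groups of region and treatment, the group means of miR-29a-3p ran from 3258 RPM (A, ethanol-exposed non-enriched) to 3864 RPM (A, control non-enriched), both in one region, and the other 6 lay between them with SDs of 235 to 630 RPM.

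**Figure D1:**
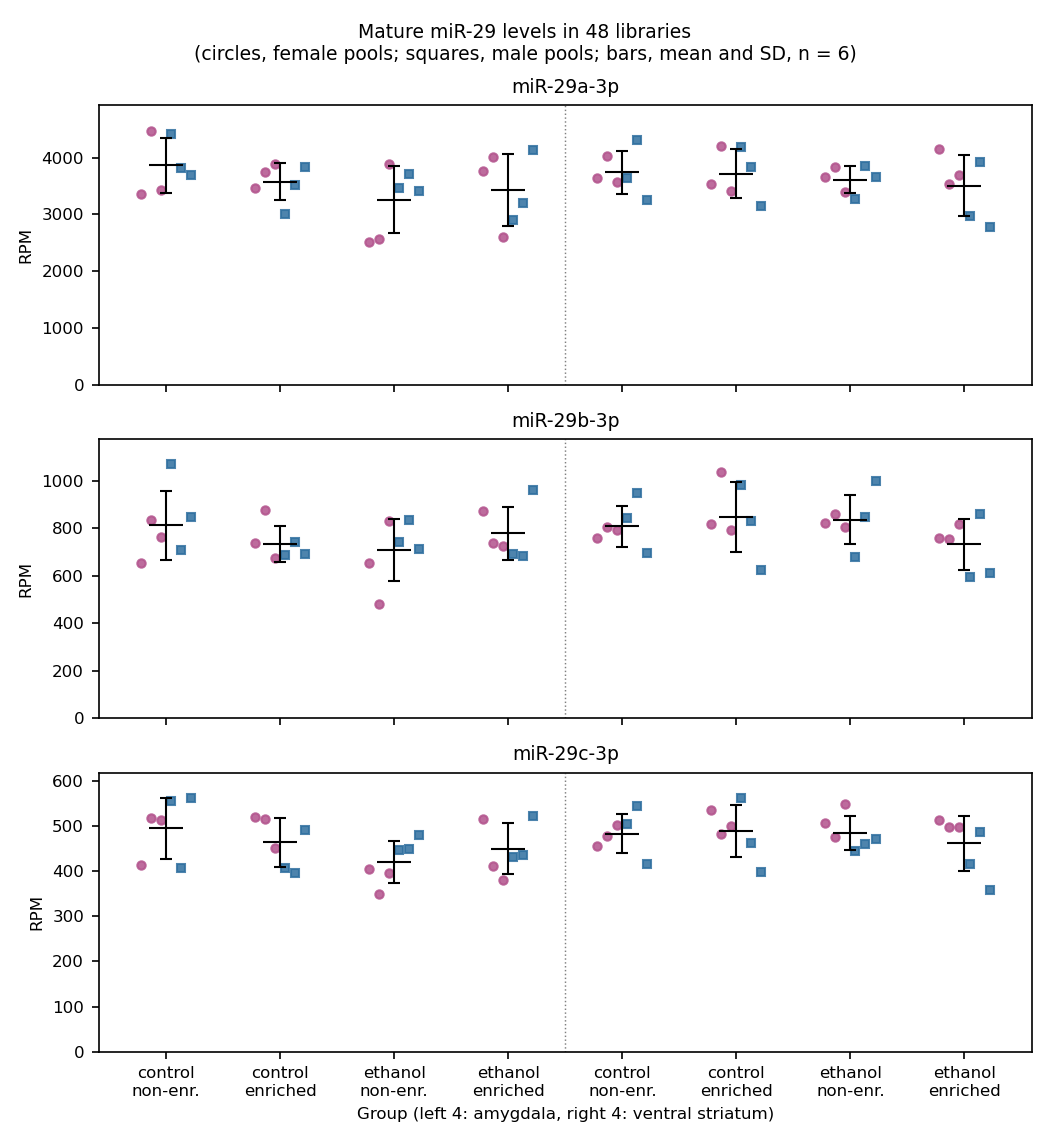
RPM (vertical axes, from 0) of the 3 mature forms in each of 48 libraries, by region and treatment group (horizontal axis). Circles are female pools, squares male pools, and bars the mean and SD of 6. Every group of a form overlaps every other. The lowest miR-29b-3p and miR-29c-3p values (481 and 350 RPM) come from the same library, F2 of the ethanol-exposed non-enriched amygdala. That library also has the most RPM of choroid plexus and ciliated-cell names (136518).

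The mature forms were also among the steadier names. After removal of the means of the 16 cells of region, sex and treatment, the SD of log2(RPM + 1) was 0.20 for miR-29a-3p, 0.22 for miR-29b-3p and 0.16 for miR-29c-3p, against a median of 0.33 over the 307 mature names with a mean of at least 10 RPM. Of those names, 13.7%, 19.2% and 4.56% had a smaller SD than miR-29a-3p, miR-29b-3p and miR-29c-3p. The names were not matched for level, and low counts widen this SD. The 3 members had median counts of 3523, 756 and 456 reads in a library. The highest library exceeded the lowest 1.78-fold for miR-29a-3p, 2.23-fold for miR-29b-3p and 1.61-fold for miR-29c-3p. The opposite arms were scarce: miR-29a-5p averaged 3.99 RPM, miR-29b-5p 2.11 RPM and miR-29c-5p 6.57 RPM. The 3p arm therefore outnumbered the 5p arm 899-fold, 371-fold and 71.4-fold on these means, which for the 5p arms rest on median counts of 3, 2 and 6 reads in a library.

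Among the precursor names, mir-29a had 4116 ± 524 RPM (SD, n = 48; rank 43 of 451), between 2927 and 5087 RPM. It tracked miR-29a-3p closely, with a Pearson correlation of log2 values of 0.98 over 48 libraries, and reads of the mature arm can count under both names. mir-29b-2 had 272 ± 61.9 RPM (rank 160), between 182 and 433 RPM. mir-29b-1 was the lowest member with 40.7 ± 14.5 RPM (rank 235), from 12.2 to 77.9 RPM, or 9 to 113 reads. Its within-cell SD of 0.58 was larger than that of 89.8% of the 283 precursor names with a mean of at least 10 RPM, and its highest library exceeded its lowest 6.40-fold. Of the other hairpin names, mir-29c-1 averaged 314 RPM, mir-29c-2 188 RPM and mir-29b-3 76.3 RPM.

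Precursor and mature values stood in different proportions for the 3 forms. mir-29a had 1.15 ± 0.0316 times the RPM of miR-29a-3p (SD, n = 48), and the mir-29c names together had 1.07 ± 0.0293 times that of miR-29c-3p. The 3 mir-29b names together had only 0.497 ± 0.0379 times the RPM of miR-29b-3p, and the ranges did not overlap: the highest ratio for miR-29b was 0.571 and the lowest for the other forms was 1.00. miR-29b-3p was spread over 3 rows of the table that averaged 294, 80.01 and 409 RPM, and the table does not name the hairpin of a row. The means of 294 and 80.01 RPM lay near those of mir-29b-2 (272 RPM) and mir-29b-3 (76.3 RPM). The mean of mir-29b-1, 40.7 RPM, lay below each row and far below 409 RPM. If the rows pair with the hairpins in this way, the low ratio comes mainly from mir-29b-1 and is not shared by the other mir-29b names. That pairing was not tested. How reads that match several hairpins were divided was not given in the sources used here, and levels of single mir-29b hairpins are uncertain for that reason.

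**Figure D2:**
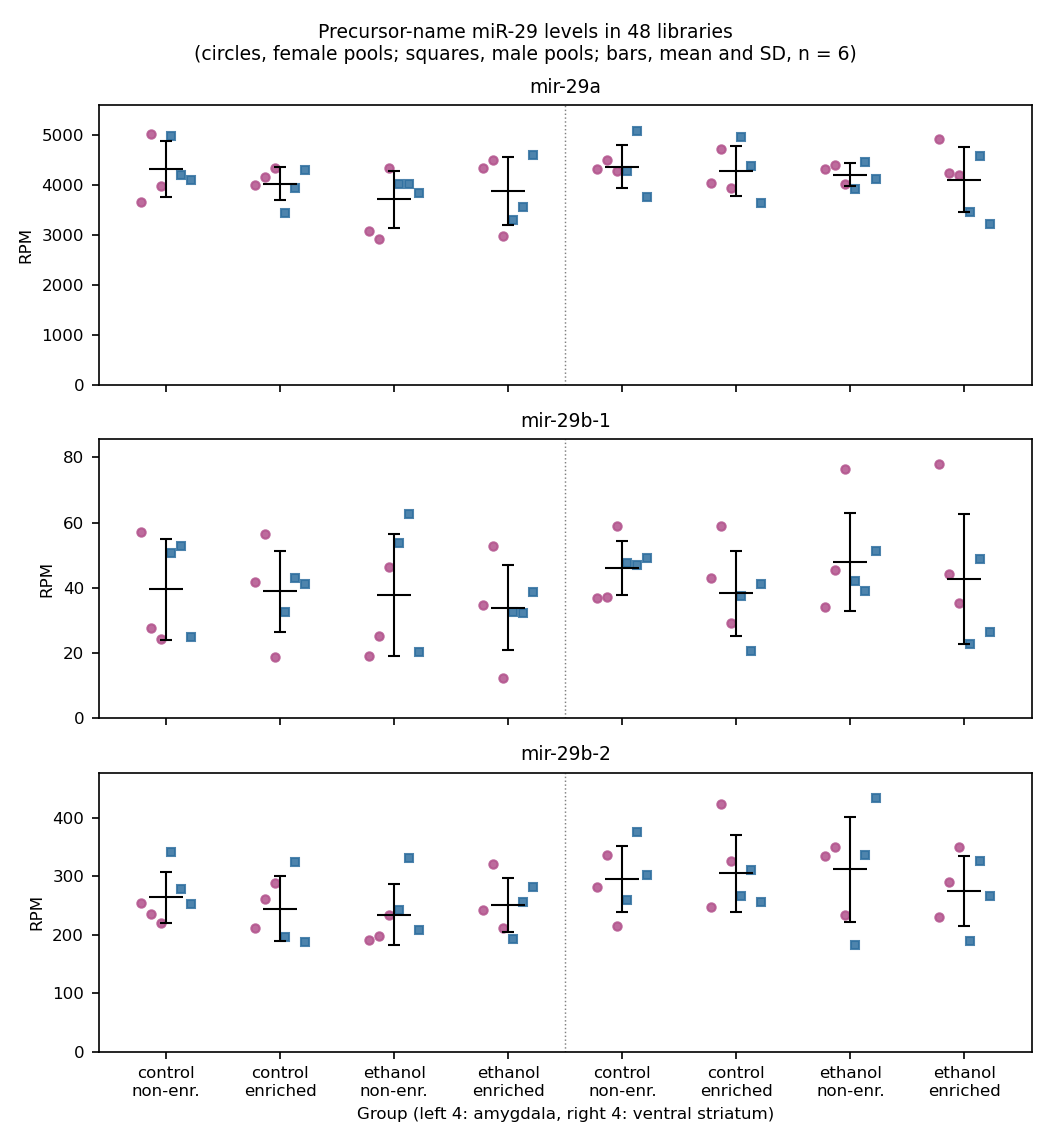
RPM (vertical axes, from 0) of the 3 precursor names in each of 48 libraries, by region and treatment group (horizontal axis). Circles are female pools, squares male pools, and bars the mean and SD of 6. mir-29a stays within 2927 to 5087 RPM, while mir-29b-1 spans 12.2 to 77.9 RPM and overlaps between all groups.

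The split of reads between mir-29b-2 and mir-29b-3 set the libraries into separate ranges. In 24 libraries mir-29b-2 took 65.4% to 72.6% of the sum of these names, and in the other 24 it took 83.01% to 89.2%, with no library in between. The upper range held 8 of 24 amygdala and 16 of 24 ventral striatum libraries. Among male pools the range went with the replicate number in all 4 treatment groups: M1 was in the lower range in 8 of 8 libraries, M2 in the upper range in 8 of 8, and M3 in the lower range in 4 of 4 amygdala and in the upper range in 4 of 4 ventral striatum libraries. Among female pools the numbers were mixed, except for F2 of the ventral striatum (4 of 4 upper). The upper range held 2 of 6 libraries in each amygdala group and 4 of 6 in each ventral striatum group, so the treatment comparisons were balanced for it and the comparison of regions was not. The 8 amygdala libraries of the upper range were those with the fewest mature reads of that region, 363141 to 622111, while the other 16 had 669367 to 1287699. In the ventral striatum the depths overlapped (739464 to 1229472 and 790732 to 1370412).

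The same libraries differed in other names. The share of mir-29c-1 in mir-29c-1 plus mir-29c-2 had a median of 58.0% (upper) and 65.7% (lower) among amygdala libraries, and of 58.1% and 66.1% among ventral striatum libraries. Of 956 names outside the family, 68 (7.11%) differed between the ranges in limma at an adjusted p under 0.05. miR-29c-3p was lower in the upper range, with 415 ± 32.9 RPM (n = 8) against 479 ± 59.1 RPM (n = 16) in the amygdala and 469 ± 45.5 RPM (n = 16) against 504 ± 49.999 RPM (n = 8) in the ventral striatum. The difference in log2(RPM + 1), upper minus lower, was -0.15 (limma, adjusted p = 0.0171). For miR-29a-3p it was 0.01 (adjusted p = 0.971) and for miR-29b-3p -0.07 (adjusted p = 0.585). The ranges were cut from mir-29b-2 and mir-29b-3, and miR-29c-3p correlated with mir-29b-3 (r = 0.74, cell means removed). Its p-value between the ranges is therefore not an independent test. The libraries had been sequenced in 6 multiplexed sets, but the labels do not give the set of a library. The ranges were found after the values were seen, and what separates them was not tested.

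**Figure D3:**
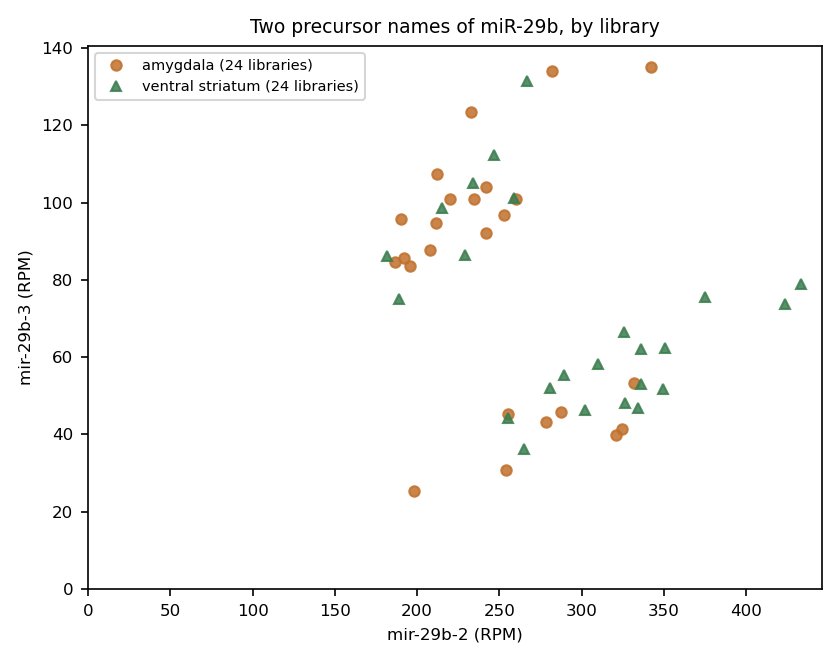
mir-29b-3 (vertical axis, RPM) against mir-29b-2 (horizontal axis, RPM) in 24 amygdala libraries (circles) and 24 ventral striatum libraries (triangles). The points lie on separate lines, one with mir-29b-2 shares of 65.4% to 72.6% and one with 83.01% to 89.2%, and 16 of 24 ventral striatum but 8 of 24 amygdala libraries lie on the latter.

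The first comparison asks whether the regions differ. Both regions were dissected from the same rats, while the fit treats the 48 libraries as independent and the labels do not say which pools share rats. All 6 members had a higher mean in the ventral striatum, and 1 of 6, mir-29b-2, passed an adjusted p under 0.05, against 28.5% of all 968 names tested (20.4% higher and 8.16% lower in the ventral striatum). At an unadjusted p under 0.05 it was also 1 of 6, against 39% of names. In bulk tissue, fewer cells of a type and less RNA per cell cannot be told apart. The mature forms differed little: miR-29a-3p had 3646 ± 394 RPM in the ventral striatum and 3533 ± 535 RPM in the amygdala (SD, n = 24 each), a difference in log2(RPM + 1) of 0.05 ± 0.06 (SE; adjusted p = 0.535). miR-29b-3p had 807 ± 115 and 760 ± 119 RPM (0.09 ± 0.06, adjusted p = 0.324), and miR-29c-3p 480 ± 49.0 and 458 ± 59.7 RPM (0.07 ± 0.05, adjusted p = 0.244). These differences lie around 0.08, the median over all 968 names, and permutation tests of the mean RPM gave p = 0.412, 0.169 and 0.157. With a term for the upper and lower range of libraries, added after the values were seen, miR-29c-3p alone of the mature forms passed (0.12 ± 0.04, adjusted p = 0.0232). The ranges were cut from mir-29b-2 and mir-29b-3, and miR-29c-3p had a correlation of 0.74 with mir-29b-3, cell means removed. The term is therefore not independent of miR-29c-3p, and the share of all names that passed with it is not given here.

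mir-29b-2 had 296 ± 66.1 RPM in the ventral striatum (lowest 182, median 296, highest 433 RPM) and 248 ± 47.4 RPM in the amygdala (187, 242 and 342 RPM). The regions overlapped over most of their range. The difference was 0.24 ± 0.09 in log2(RPM + 1), or 18.5% (limma, p = 0.0132, adjusted p = 0.0475; permutation test of the mean RPM, p = 0.00636). Among libraries of the lower range, mir-29b-2 had 231 ± 40.2 RPM in the amygdala (n = 16) and 228 ± 30.8 RPM in the ventral striatum (n = 8), and among those of the upper range 281 ± 45.3 (n = 8) and 331 ± 49.9 RPM (n = 16), so that the means were alike in the lower range and apart in the upper range. These are described and not tested because mir-29b-2 itself defined the ranges. With the term for the ranges, which is built from mir-29b-2, its difference was 0.11 ± 0.07 (adjusted p = 0.258). With consecutive library numbers as pairs it stayed 0.24 (adjusted p = 0.0320). Summed with mir-29b-3, which removes the division of reads between these names, the difference was 0.16 ± 0.07 and did not pass (adjusted p = 0.0928). The sum was 327 ± 46.4 RPM (lower range) and 388 ± 60.3 RPM (upper range) in the ventral striatum. In the amygdala it was 333 ± 54.0 and 322 ± 52.2 RPM, so the comparison of regions is not freed of the ranges by summing. The call was also lost within females (0.32, adjusted p = 0.0689), within males (0.17, adjusted p = 0.516), after median-ratio rescaling (0.17, adjusted p = 0.156), without a filter on low names (adjusted p = 0.0518), and when any one of 32 of the 48 libraries was left out (adjusted p up to 0.0795). It was lost too without the libraries richest in choroid plexus names, and with those names left out of the RPM.

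The other precursors showed no regional difference past the threshold. mir-29a had 4243 ± 457 RPM in the ventral striatum and 3988 ± 565 RPM in the amygdala (0.10 ± 0.06, adjusted p = 0.209), and mir-29b-1 had 43.8 ± 14.2 and 37.6 ± 14.3 RPM (0.26 ± 0.17, adjusted p = 0.260). Of the hairpin names that are not members, mir-29c-2 was higher in the ventral striatum (0.18 ± 0.05, adjusted p = 0.00808), mir-29c-1 was not (0.01 ± 0.07, adjusted p = 0.913), and their sum did not pass (0.08, adjusted p = 0.198). mir-29b-3 differed by -0.13 ± 0.20 (adjusted p = 0.689). Both names that passed, mir-29b-2 and mir-29c-2, were also the ones that took a larger share of their pair in the upper range of libraries. Oligodendrocyte names moved with region too: miR-219a-5p, miR-219a-2-3p and miR-338-3p were all higher in the ventral striatum (3 of 3, by 0.44 to 0.59, where 20.4% of all names were higher). Names of choroid plexus and ciliated cells went the other way, with differences of -1.44 to -0.65 and a median of -1.13. At an adjusted p under 0.05, 2 of 5 were lower, where 8.16% of all names were. The part of either list in the miR-29 values was not tested.

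The second comparison is ethanol against saline in non-enriched rats of the amygdala, A N(EvC). The 6 members all had lower means in ethanol-exposed rats, by 4.19% (mir-29b-1) to 15.7% (miR-29a-3p), and 1 of 6 had an unadjusted p under 0.05, against 4.51% of the 910 names tested (3.63% lower). No name of the table passed an adjusted p under 0.05 (0%). The one member was miR-29c-3p. Its libraries held 350 RPM (F2), 395 (F3), 404 (F1), 448 (M1), 448 (M2) and 480 RPM (M3) after ethanol, and 407 (M2), 415 (F1), 514 (F3), 519 (F2), 555 (M1) and 563 RPM (M3) after saline. Of the control libraries, 4 were above every ethanol-exposed library and 2 lay within their range. The means were 421 ± 46.6 and 495 ± 68.1 RPM, a difference in log2(RPM + 1) of -0.23 ± 0.10 (limma, p = 0.0311, adjusted p = 0.842; exact permutation test of the means, two-sided p = 0.0498).

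The other members had differences of -0.26 (miR-29a-3p, exact p = 0.0996), -0.20 (miR-29b-3p, exact p = 0.236), -0.23 (mir-29a, exact p = 0.106), -0.12 (mir-29b-1, exact p = 0.814) and -0.18 (mir-29b-2, exact p = 0.310), on a scale where the median of all 910 names was -0.08. Among names that are not members, and named after their values were seen, mir-29c-2 (-0.24) and miR-29c-5p (-0.65) were below an unadjusted 0.05 in limma as well, with adjusted p = 0.842 for both. The same contrast in the ventral striatum ran from -0.05 to 0.05 over the members, and the difference between regions was not under an unadjusted 0.05 for any (smallest adjusted p = 1; 3.62% of names were).

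Names of choroid plexus and ciliated cells moved with this comparison. Their sum had a median of 33641 RPM in ethanol-exposed non-enriched amygdala libraries (3763 to 136518 RPM) and of 9172 RPM in control non-enriched ones (3372 to 37636 RPM), and all 5 names had higher estimates after ethanol, by 0.15 to 2.23 in log2(RPM + 1), none with an unadjusted p under 0.05. Over the 24 amygdala libraries, the sum of the mature miR-29 forms was lower where this sum was higher (log2 values, Pearson r = -0.734, permutation p = 2e-05; Spearman rho = -0.743, p = 5e-05; r = -0.721 without the 2 libraries farthest from the median). The relation was r = -0.708 in the 16 libraries of the lower range (permutation p = 0.00217) and r = -0.883 in the 8 of the upper range (permutation p = 0.00790). In the 24 ventral striatum libraries r was -0.281 (p = 0.182) by the same permutation test. These names took up to 13.7% of a library's mature RPM, which lowers every other share. With them left out of the RPM, r was -0.602 (permutation p = 0.00198), and adjusted over these 5 relations all of the amygdala values stayed under 0.05 (largest 0.00987). Reads of any other names from the same cells stayed in the RPM, so this cannot separate a lowered share from another relation. The upper and lower ranges were found after the values were seen. The permutations shuffled libraries across treatment groups and sexes. How other mature names relate to the choroid plexus sum is not given here, so the relation is not shown to be particular to miR-29.

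**Figure D4:**
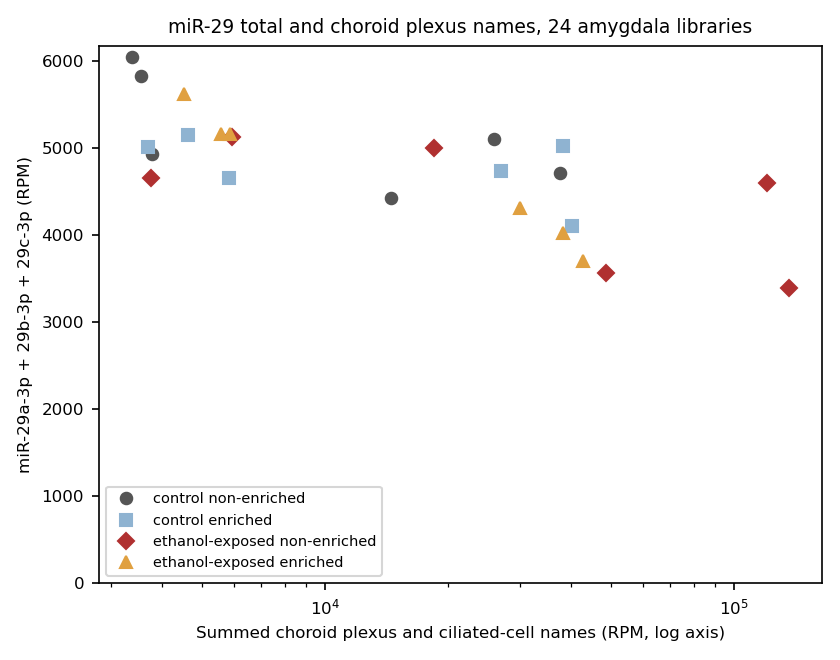
Summed RPM of miR-29a-3p, miR-29b-3p and miR-29c-3p (vertical axis, from 0) against summed RPM of 5 choroid plexus and ciliated-cell names (horizontal log axis) in 24 amygdala libraries, marked by treatment group. The library with the most choroid plexus RPM (136518) has the lowest miR-29 sum (3393 RPM), and the one with the least (3372) has the highest (6043 RPM). Points between them scatter: ethanol-exposed non-enriched M3 (120643 RPM) has a miR-29 sum of 4602 RPM, and M1 of that group (3763 RPM) has 4651 RPM.

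The estimate for miR-29c-3p in A N(EvC) shrank and was no longer under an unadjusted 0.05 when these names were left out of the RPM (-0.17, limma, adjusted p = 1). Without the 2 libraries over 100000 RPM of these names, ethanol-exposed non-enriched F2 and M3, it was -0.21 and again not under an unadjusted 0.05 (adjusted p = 1). After median-ratio rescaling it was -0.12, also not under an unadjusted 0.05 (adjusted p = 0.991). With the term for the 2 ranges of libraries it was -0.23 and stayed under an unadjusted 0.05 (adjusted p = 0.643). Leaving out 1 library at a time moved the number of members under an unadjusted 0.05 between 0 and 4. It was 4 without ethanol-exposed non-enriched F3, 2 without control non-enriched F1 or ethanol-exposed enriched F3, and 0 without any one of control non-enriched F2, F3, M1 or M3 or ethanol-exposed non-enriched F2, M1 or M2. The share of all names under 0.05 in these fits is not given here, so the counts cannot be set against the whole table.

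None of the remaining treatment comparisons moved a member past an unadjusted p under 0.05. In enriched rats of the amygdala, A S(EvC), differences in log2(RPM + 1) ran from -0.24 to 0.08 (smallest exact p = 0.461), where 3.85% of 910 names had an unadjusted p under 0.05. Enrichment in the amygdala gave -0.13 to 0.00 in control rats (A C(SvN), smallest exact p = 0.258, 2.64% of names) and -0.12 to 0.15 in ethanol-exposed rats (A E(SvN), smallest exact p = 0.344, 2.64% of names). For E(SvN) 5 of 6 estimates were above 0, on the far side of the negative ones of N(EvC), but these contrasts share the ethanol-exposed non-enriched libraries. The interaction of ethanol and housing in the amygdala was not past the threshold for any member (-0.12 to 0.28, smallest adjusted p = 1, 3.85% of names under an unadjusted 0.05).

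In the ventral striatum the ethanol effect was -0.05 to 0.05 in non-enriched rats (V N(EvC), smallest exact p = 0.472, 2.04% of 933 names) and -0.21 to 0.10 in enriched rats (V S(EvC), smallest exact p = 0.139, 2.25%). The lowest of the latter was miR-29b-3p, with 733 ± 108 RPM after ethanol and 849 ± 147 RPM in controls (SD, n = 6 each). Enrichment gave -0.31 to 0.06 in control rats (V C(SvN), smallest exact p = 0.253, 3.86%) and -0.24 to -0.05 in ethanol-exposed rats (V E(SvN), smallest exact p = 0.119, 1.82%). The interaction ran from -0.25 to 0.07 (smallest adjusted p = 1, 2.57% of names under an unadjusted 0.05). Over the 8 treatment comparisons and 6 members, exact permutation tests of 6 against 6 gave 1 p under 0.05 in 48, that of miR-29c-3p in A N(EvC), and in none of the 48 were the groups free of overlap. The smallest p this test allows is 0.00216. For the mature forms the SE of a treatment difference was between 0.09 and 0.13. A difference of -0.26 in miR-29a-3p, with an SE of 0.13, was not under an unadjusted 0.05 in A N(EvC), so changes of that size could go uncalled with 6 pools a group.

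**Figure D5:**
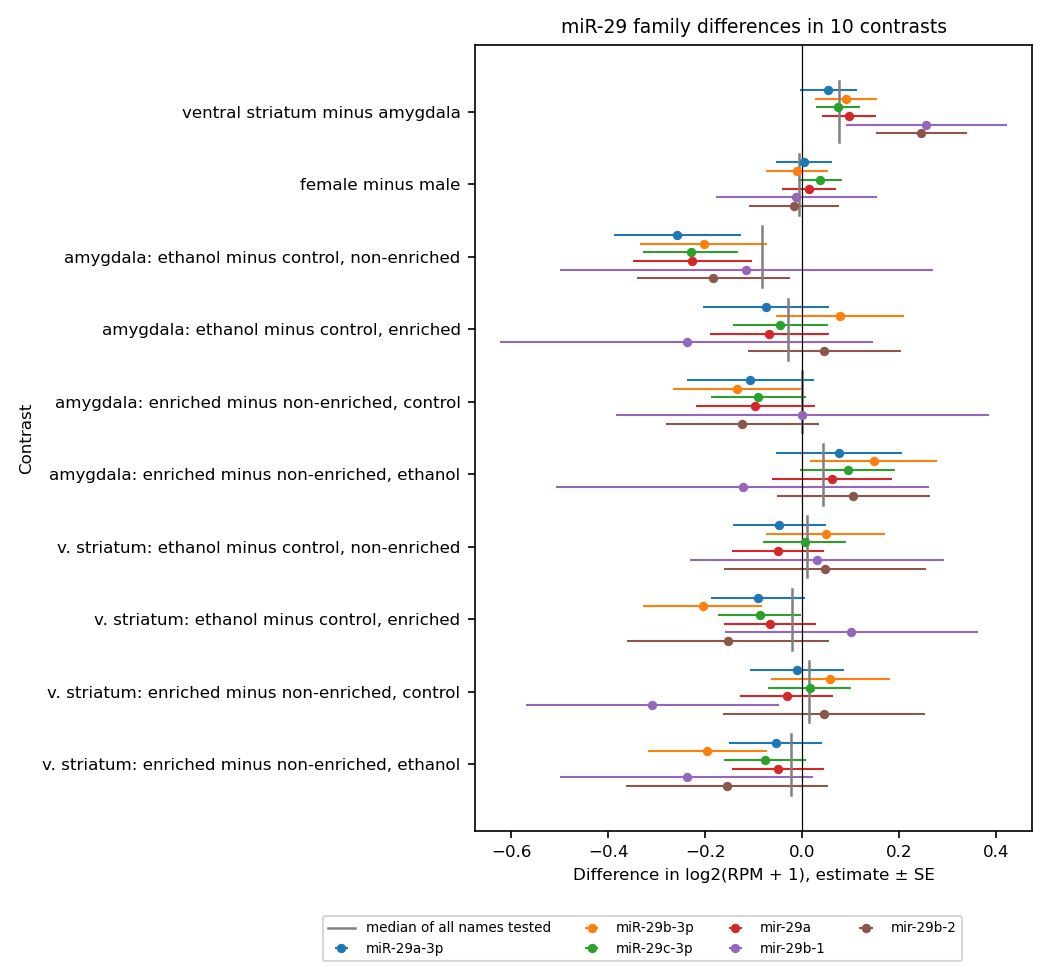
Differences in log2(RPM + 1) with SE (horizontal axis) of the 6 members in 10 contrasts (vertical axis); grey ticks mark the median of all names tested. Only mir-29b-2 in the comparison of regions passed an adjusted p under 0.05, and mir-29b-1 has the widest errors (SE 0.17 to 0.38).

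No member passed in the comparison of females with males (-0.02 to 0.04, smallest adjusted p = 1), where 3.93% of 968 names had an unadjusted p under 0.05 and 0% an adjusted one. Differences of each treatment effect between the regions had no member under an unadjusted 0.05 either. The members ran from -0.34 to 0.28 for S(EvC) (2.38% of names under an unadjusted 0.05), from -0.19 to 0.31 for C(SvN) (2.58%) and from 0.11 to 0.34 for E(SvN) (2.48%), each as amygdala minus ventral striatum.

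The members were compared with lists of miRNAs that share a known role. Of 10 names known to repress DNA methylation or chromatin regulators, 3 were higher and 1 was lower in the ventral striatum at an adjusted p under 0.05, where 20.4% of all names were higher and 8.16% lower, and the median difference was 0.13 against 0.08 for all names. miR-101b-3p (0.64, adjusted p = 1.2e-06) and miR-148a-3p (0.32, adjusted p = 0.000472) rose there, miR-148b-3p rose less (0.12, adjusted p = 0.0492), and miR-152-3p fell by 0.59 (adjusted p = 0.0371). miR-148 and miR-152 are known to target DNA methyltransferases and miR-101 the histone methyltransferase EZH2. Of 8 names known to rise as neurons mature, miR-138-5p, which limits dendritic spine size, was higher (0.25, adjusted p = 0.0108), while miR-128-3p and let-7c-5p were lower (-0.41 and -0.19, adjusted p = 0.0137 and 0.0411), beside the same 20.4% and 8.16% of all names. In A N(EvC) none of either list passed an adjusted p under 0.05. Their median differences were -0.10 and -0.08 against -0.08 for all names, and the members' median was -0.22. The neuronal names miR-124-3p, miR-128-3p and miR-138-5p, which belong to the second list, had a median of -0.24 (-0.25 to -0.24). None of them was under an unadjusted 0.05, and the 8 names of that list ran from -0.25 to 0.19. How many of all names had estimates as low as those of the members is not given here. Whether the fall was particular to miR-29 was not tested.

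The mature forms varied together. Over 48 libraries the correlation of log2(RPM + 1) was 0.76 between miR-29a-3p and miR-29b-3p, 0.66 between miR-29a-3p and miR-29c-3p and 0.72 between miR-29b-3p and miR-29c-3p, and 0.74, 0.54 and 0.67 with the 16 cell means removed. These values share library and scaling, and are descriptions. Among 304 mature names outside the family with a mean of at least 10 RPM, the most alike to miR-29a-3p over 48 libraries were miR-212-3p (r = 0.83), miR-124-3p (0.76) and miR-132-5p (0.76), against a median r of 0.16 over all 304. With cell means removed they were miR-124-3p (0.86), miR-212-3p (0.83) and miR-137-3p (0.82). miR-29b-3p was most like miR-129-5p (0.72), miR-101a-3p (0.67) and miR-148b-3p (0.66), or miR-137-3p (0.75), miR-190a-5p (0.75) and miR-153-3p (0.73) with cell means removed. miR-29c-3p was most like miR-136-3p (0.66), miR-127-5p (0.61) and miR-101a-3p (0.60), or miR-384-3p (0.67), miR-3068-5p (0.66) and miR-344a-3p (0.66) with cell means removed. No name stood in the 3 most alike of all 3 forms on either measure.

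The precursors of miR-29b and miR-29c paired across the hairpins and not within them. With cell means removed, mir-29b-3 went with mir-29c-1 (r = 0.87) and mir-29b-2 with mir-29c-2 (r = 0.64), while mir-29b-2 with mir-29b-3 gave -0.37 and mir-29b-2 with mir-29c-1 gave -0.38. mir-29b-1 had correlations of 0.40 or less in size with every other hairpin name, including 0.40 with mir-29a, its neighbour on the chromosome. All of these are descriptions over 48 libraries that share the split between the upper and lower range.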

How the data were processed

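Small RNA of 48 pools was sequenced by the authors, trimmed of bases under a phred score of 20, aligned to Rn5 with Bowtie and quantified in Partek Flow against miRBase 21. Per the labels and methods, the deposited signal is RPM. The table was checked: mature and precursor names each sum to 1000000 in a library. The worth of 1 read was taken as the smallest value that at least 5 rows of a library shared. Of values under 50 reads, 92.5% to 99.6% (mature) and 85.2% to 91.5% (precursor) were whole reads within 0.02, so no count test was used. Rows sharing a name were summed (122 rows of 56 names).

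Names above 0 RPM in at least 6 libraries entered limma 3.58.1 (trend, R 4.3.3) as log2(RPM + 1), two-sided and Benjamini-Hochberg adjusted over all names: 8 cells of sex and treatment per region, and 16 cells over 48 libraries for region and sex. Fold changes on this scale understate low names. Permutation tests used scipy 1.17.1 (100000 resamples, or all 924 splits). Calculations were tested on simulated data. Members and lists were chosen with earlier results of these data known. All 6 members were named in the comparison of regions, and elsewhere those with an unadjusted p under 0.05. The alternatives tried were: each sex, each library left out, the replicate block, unlogged RPM, rescaling by median ratios, a pseudocount of 0.1 or 10, and either no filter or a minimum mean of 10 RPM. Summed hairpins, the term for the ranges, and both choroid plexus alternatives were added after seeing the data. RefSeq sequences are of GRCr8.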

Additional observations from a re-analysis of the deposited data

Results flagged for a closer look

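In 48 sets of 6 libraries (6 members in 8 groups), 2 libraries lay far from the other 5 of their group, where chance gives about 1 in 20. miR-29b-3p had 878 RPM in the control enriched amygdala library F2, and 674 to 743 RPM in the other 5. mir-29b-2 had 332 RPM in the ethanol-exposed non-enriched amygdala library M2, and 190 to 242 RPM in the other 5. M2 is one of the libraries in which mir-29b-2 took at least 83.01% of the sum with mir-29b-3.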

How the results depend on the processing

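For the comparison of regions, the number of members with an adjusted p under 0.05 was 1, and 0 without a filter, after median-ratio rescaling, within females, within males, with mir-29b-2 summed with mir-29b-3, without the 2 libraries richest in choroid plexus names and with those names left out of the RPM; it was 0 to 1 when 1 library was left out. The number with an unadjusted p under 0.05 was 1, and 0 after rescaling and within males, 2 within females and 1 to 2 with 1 library left out. Small differences changed sign: miR-29a-3p was -0.012 after rescaling and -0.010 within males, miR-29c-3p -0.016 and mir-29b-1 -0.025 within males. In A N(EvC), the number with an unadjusted p under 0.05 was 1, and 0 after rescaling and under both choroid plexus alternatives, and 0 to 4 with 1 library left out. In the interactions, V S(EvC), V E(SvN) and the differences of N(EvC), S(EvC) and E(SvN) between regions it was 0 to 1, and in all other contrasts 0. With the term for the ranges of libraries the comparison of regions kept 1 member by either rule, but it was miR-29c-3p (0.12, adjusted p = 0.0232) and no longer mir-29b-2 (0.11, adjusted p = 0.258), and the difference of N(EvC) between regions had 1 member under an unadjusted 0.05, miR-29c-3p, in place of 0. The cause of these changes was not tested, and the shares of all names called in these alternative fits are not given here. Rescaling took the median of all names from 0.08 to 0.02 for the regions and from -0.08 to 0.00 for A N(EvC).

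Libraries with the same replicate number did not deviate together in the median, but single pairs went together or apart. The median correlation was 0.00018 over 36 pairs of the amygdala (-0.486 to 0.393, 12 over 0.1). It was 0.0012 over 36 of the ventral striatum (-0.360 to 0.366, 16 over 0.1). The mir-29b ranges did go with the number in males. Over the 24 pairs of regions with consecutive library numbers the median correlation was 0.0527 (9 over 0.1). With the replicate block, mir-29b-2 differed between regions by 0.24 (adjusted p = 0.0436, or 0.0320 with consecutive library numbers as pairs) and miR-29c-3p in A N(EvC) by -0.23 (adjusted p = 0.844), and the block changed none of the counts above. The block could not be fitted for the comparison of the sexes. Depth limits mir-29b-1 most, at 9 to 113 reads a library.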
